A study of Homo sapiens and Mus musculus with 76 samples.

Results

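Single mouse embryonic fibroblasts (MEFs) sequenced with Smart-Seq2 made up 7 of the 76 libraries of the series, and the account below describes how these 7 cells differed from one another. The libraries were chosen by their source label alone, with no measured value used. The series set an improved full-length cDNA protocol for single cells, Smart-Seq2, beside its variants and a commercial kit, in cells of several origins. Its other mouse libraries were 6 single cells of C2C12, a mouse myoblast line, which serve here as a second group of single cells made with the same protocol. The labels gave each MEF a number (33, 35, 36, 37, 38, 39 and 40) and described all of them as embryonic fibroblasts without a treatment. Strain, embryo, sex, passage and genotype were not in the labels, so it is not known whether the cells came from 1 culture, and all 7 were treated as cells of 1 sample. No p-value was therefore computed, and every spread and correlation below is a description of these 7 cells.

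Fibroblasts are connective tissue cells that secrete collagens, fibronectin, proteoglycans and the enzymes that fold and crosslink them. Macrophages are phagocytes of the innate immune system, which make lysozyme, complement C1q and a large set of lysosomal proteases, and which depend on the receptor Csf1r for survival. Both kinds of cell occur in connective tissue.

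Levels are given as CPM, the reads of a gene per 1000000 gene reads of the same library. MEF libraries held 3.18 to 9.48 M gene reads (1 M being 1000000), with MEF 39 the shallowest. From 8812 to 11833 genes had at least 1 read. MEF 39 had the most genes in spite of its depth, and MEF 33 the fewest. After thinning every library to the depth of MEF 39, MEF 33 kept 8225 genes and the other 5 cells kept 9459 to 10732, against 11833 in MEF 39. No library was a copy of another, since chi-square tests of the reads of 2 cells averaged at least 118 per gene. Across genes, the Pearson correlation of log2(CPM + 1) between pairs of cells ran from 0.31 for MEF 33 with MEF 38 to 0.56 for MEF 35 with MEF 39. MEF 39 had the highest median correlation with the other cells, 0.53, and MEF 38 the lowest, 0.36.

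The data went partly against the fibroblast label. All 7 libraries held transcripts of collagens and of macrophage genes together, and the macrophage genes were not at trace levels. Ptprc, the CD45 antigen of blood cells, lay between 36.2 and 539 CPM in MEFs and at no more than 0.554 CPM in C2C12 cells. Lyz2, the lysozyme of mouse macrophages, lay between 998 and 19891 CPM in MEFs and reached 18.6 CPM in C2C12 cells at most. Of 40 macrophage genes, 38 had a read in every MEF. The summed level of these genes was 7861 to 55305 CPM in MEFs and 20.7 to 272 CPM in C2C12 cells.

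The fibroblast surface markers Pdgfra and Thy1 were low, and they are named here as part of the check of the label. Pdgfra, the PDGF receptor of mesenchymal cells, had 0 reads in MEF 33, 0.337 CPM in MEF 37 and 3.17 CPM in MEF 36, and 24.8 to 100.1 CPM in the other 4 cells. Thy1 was detected in every cell, at 36.4 to 110.4 CPM. Of 22 genes of mesenchymal identity, 12 had a read in all cells, and the summed level of the list was 4468 to 14349 CPM. A mean of at least 100 CPM was reached by 4 of them, S100a4, Vim and the surface proteins Ly6a and Ddr2. Most of that sum came from Vim, an intermediate filament protein that macrophages also make, and S100a4. Vim lay between 1672 and 4566 CPM.

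Markers of lymphocytes, mast cells, red blood cells and epithelium were at or near 0. The summed level of 11 T and B cell genes did not exceed 4.14 CPM in any MEF, with 6 of the genes at 0 reads in all cells. That of 8 mast cell genes did not exceed 7.86 CPM and that of 8 erythroid genes 0.613 CPM. The 11 epithelial genes summed to at most 25.9 CPM, and 7 of them had no read in any cell. Lists of other cell types had more reads. The 10 adipocyte genes summed to 272 to 5232 CPM, mostly Lpl and Cd36, which macrophages also make, with 4 genes at 0 reads in all cells. The 18 myogenic genes summed to 19.2 to 455 CPM, mostly Mef2c. The sums were 10.9 to 329 CPM for chondrocyte and osteoblast genes, 13.2 to 238 CPM for pericyte and smooth muscle genes, 19.4 to 137 CPM for Schwann and neural crest genes, 17.4 to 125 CPM for endothelial genes and 0.422 to 86.1 CPM for neuronal genes. Their part in the results below was not tested. The cells are called MEFs below after their label and are described by the genes they held. No doublet caller was run on 7 libraries, and whether a library held RNA of more than 1 cell, or free RNA from the culture, was not tested.

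Matrix and macrophage transcripts varied in opposite directions between the cells. The 49 genes of the collagen list and the list of other matrix proteins summed to 5067 CPM in MEF 33, 39763 in MEF 35, 8554 in MEF 36, 8038 in MEF 37, 36631 in MEF 38, 29858 in MEF 39 and 12260.3 in MEF 40. The macrophage genes summed in the same order of cells to 55305, 18058, 50904, 39432, 7861, 35366 and 36364 CPM. MEF 35 and MEF 38 thus had the highest matrix sums and the lowest macrophage sums, while MEF 33 had the reverse. MEF 39 combined the third highest matrix sum with a macrophage sum close to the median of 36364 CPM.

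The ratio of macrophage to matrix reads was 10.9 in MEF 33, 5.95 in MEF 36, 4.91 in MEF 37, 2.97 in MEF 40, 1.18 in MEF 39, 0.454 in MEF 35 and 0.215 in MEF 38. The order is a gradation with no cell that had one set and lacked the other. The largest gap between neighbouring matrix sums was 1.28 on the log2 scale, within a range of 2.97. Over the 7 cells the log2 sums had a Pearson r of -0.80 and a Spearman rho of -0.93. Without MEF 35 and MEF 38, the cells farthest from the median matrix sum, r was -0.79 over 5 cells. Both sums are shares of the same library.

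**Figure D1:**
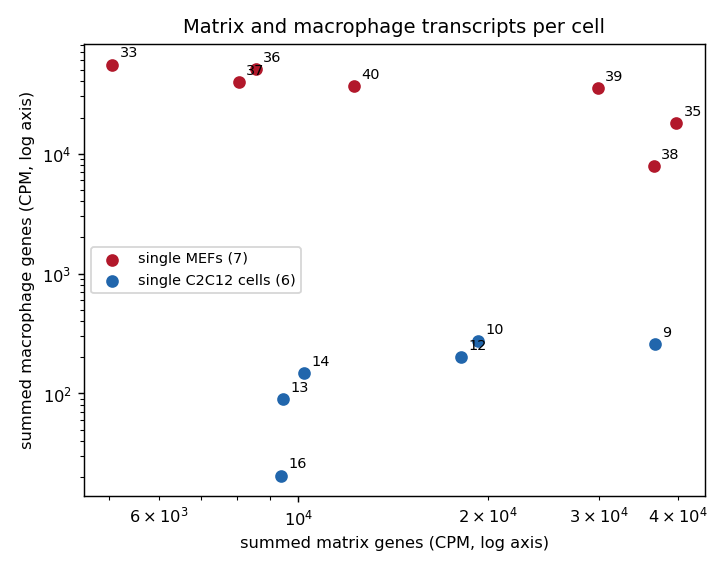
Summed CPM of the 49 matrix genes (horizontal, log axis) against summed CPM of the 40 macrophage genes (vertical, log axis), 1 point per cell with its label number. The 7 MEFs run from MEF 33 at 5067 and 55305 CPM to MEF 38 at 36631 and 7861 CPM, and the 6 C2C12 cells lie below them at macrophage sums of 20.7 to 272 CPM.

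The spread of the matrix sum was larger than in C2C12 cells, with an SD of the log2 sum of 1.20 over 7 MEFs beside 0.79 over 6 C2C12 cells. The levels themselves overlapped, since C2C12 cells summed to 9385 to 36786 CPM. The macrophage sum had an SD of 0.99 in MEFs, beside 1.38 in C2C12 cells, where the sum was at most 272 CPM. The SD in MEFs fell to 0.57 without MEF 38 and to 0.29 without MEF 35 and MEF 38, so these cells set most of that spread.

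Col1a1, the alpha-1 chain of type I collagen, had 256 CPM in MEF 33, 7776 in MEF 35, 825 in MEF 36, 689.6 in MEF 37, 1418 in MEF 38, 2732 in MEF 39 and 559.6 in MEF 40. Its partner chain Col1a2 had 262, 3742, 341, 344, 892, 2053 and 858 CPM in the same order. Both genes were highest in MEF 35, next in MEF 39 and lowest in MEF 33. Col3a1, the fibrillar collagen of soft connective tissue, was highest in MEF 35 too, at 3741 CPM, and lowest in MEF 33, at 215 CPM.

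Other collagens did not follow that order. Col8a1, a short-chain collagen, was highest in MEF 38, at 1109 CPM, with 65.8 to 249 CPM in the other 6 cells. Col6a3, a chain of beaded-filament type VI collagen, reached 432 CPM in MEF 35 and only 20.4 CPM in MEF 38, the lowest of the 7. Col4a2, a basement membrane collagen, was lowest in MEF 37, at 3.48 CPM, and highest in MEF 39, at 202 CPM. Col14a1 was at 0 reads in MEF 33, 0.123 CPM in MEF 38 and 1.26 CPM in MEF 39, and at 43.0 to 108 CPM in the other 4.

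Among non-collagen matrix genes the leading cell also changed from gene to gene. Sparc, a collagen-binding glycoprotein, had 535 CPM in MEF 33, 3183 in MEF 35, 912 in MEF 36, 743 in MEF 37, 6439.6 in MEF 38, 3792 in MEF 39 and 1746 in MEF 40. The proteoglycan Bgn ran from 385 CPM in MEF 33 to 4850.4 CPM in MEF 38. Fn1, fibronectin, was highest in MEF 35 at 2408 CPM and lowest in MEF 33 at 234 CPM. Sparc, Bgn and Fn1 were all lowest in MEF 33, 36 and 37.

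Postn, periostin, set MEF 39 apart, with 1822 CPM there and 1.12 to 136 CPM in the other 6 cells. Aspn, asporin, had 135 CPM in MEF 35, 120.3 CPM in MEF 39 and 11.5 CPM in MEF 40, and less than 1 CPM in the other 4 cells. Dcn, decorin, a marker of many fibroblasts, was low throughout, at 0.211 to 53.7 CPM, while Eln and Lum had no read in several cells.

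Tgfbi, a secreted matrix protein that macrophages also make, was one of several matrix genes outside the pattern of Col1a1. It had 0 reads in MEF 38, which allows up to 0.368 CPM at this depth (3 reads, covering counting error only), and 564.5 to 1620 CPM in the other 6 cells. Lamc1 and Emilin1 were highest in MEF 33, 36 and 37, the cells with the lowest matrix sums. Lamc1, a laminin chain, had a correlation of -0.61 with Col1a1 over the 7 cells.

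Macrophage genes were lowest mainly in MEF 38 and MEF 35. Of 39 that passed the filter on the mean described below, 24 had their lowest level in MEF 38 and 16 in MEF 35, ties counted in both. A level under 0.5 times the median of the 7 cells was found for 35 of the 39 in MEF 38 and for 22 in MEF 35. Among 43 matrix genes it was found for 9 in MEF 38 and 1 in MEF 35. These counts were not made over all genes, so they describe the lists only. Lyz2 had 19891 CPM in MEF 33, 998 in MEF 35, 18672 in MEF 36, 9024 in MEF 37, 2682 in MEF 38, 9941 in MEF 39 and 11778 in MEF 40. MEF 35 was the lowest and MEF 33 the highest. Per transcript length, the authors' RPKM of Lyz2 was 438 times that of Col1a1 in MEF 33, 127 times in MEF 36, 118 times in MEF 40, 73.6 times in MEF 37, 20.5 times in MEF 39 and 10.6 times in MEF 38. It lay below that of Col1a1 in MEF 35 alone, at 0.722 times.

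The receptors Csf1r and Trem2 did not follow lysozyme, with an r of 0.14 and -0.15 with Lyz2. Csf1r, the receptor for the growth factor CSF1, had 1269 CPM in MEF 33, 2273 in MEF 35, 1315 in MEF 36, 1420.2 in MEF 37, 77.9 in MEF 38, 460.0 in MEF 39 and 626 in MEF 40. Trem2, a lipid-sensing receptor, was likewise highest in MEF 35, at 1687 CPM, against 222 to 796 CPM elsewhere. MEF 35 thus had the lowest Lyz2 and the highest Csf1r and Trem2. Spi1, the transcription factor PU.1 of the myeloid lineage, listed in the tables under the older symbol Sfpi1, had 29.3 CPM in MEF 38 and 222 to 584 CPM in the other 6. Tyrobp, the adaptor that signals for Trem2, had the smallest spread of the 39 macrophage genes that passed the filter, with an SD of 0.63 on the log2 scale, at 433 to 1563 CPM.

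Several other macrophage genes were low in both MEF 35 and MEF 38. Cx3cr1, the fractalkine receptor, had 63.9 CPM in MEF 35 and 77.8 CPM in MEF 38 and 777 to 1937 CPM in the other 5 cells. Cd14, the lipopolysaccharide co-receptor, had 35.02 and 45.4 CPM in these cells and 214 to 832 CPM elsewhere. Coro1a, an actin-binding protein of leukocytes, had 3.69 CPM in MEF 35 but 159 CPM in MEF 38, and Alox5ap had 4.64 and 139 CPM. Itgam, the CD11b integrin chain, and its partner Itgb2 showed the reverse, at 0.368 and 5.89 CPM in MEF 38 and at 252 and 334 CPM in MEF 35.

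The complement genes C1qa, C1qb and C1qc, whose products assemble into 1 recognition molecule, moved together. Their summed level was 5552 CPM in MEF 37, 4052 in MEF 33, 3188 in MEF 39, 1444 in MEF 36, 904 in MEF 38, 860.1 in MEF 40 and 252 in MEF 35. MEF 40, whose Lyz2 was among the 3 highest, was thus among the 3 lowest in C1q. Mrc1, the mannose receptor, had 774 CPM in MEF 37, 487 in MEF 39 and 242 in MEF 35 and 15.8 to 84.3 CPM in the other 4. Those 4 included MEF 33, the cell with the highest macrophage sum.

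**Figure D2:**
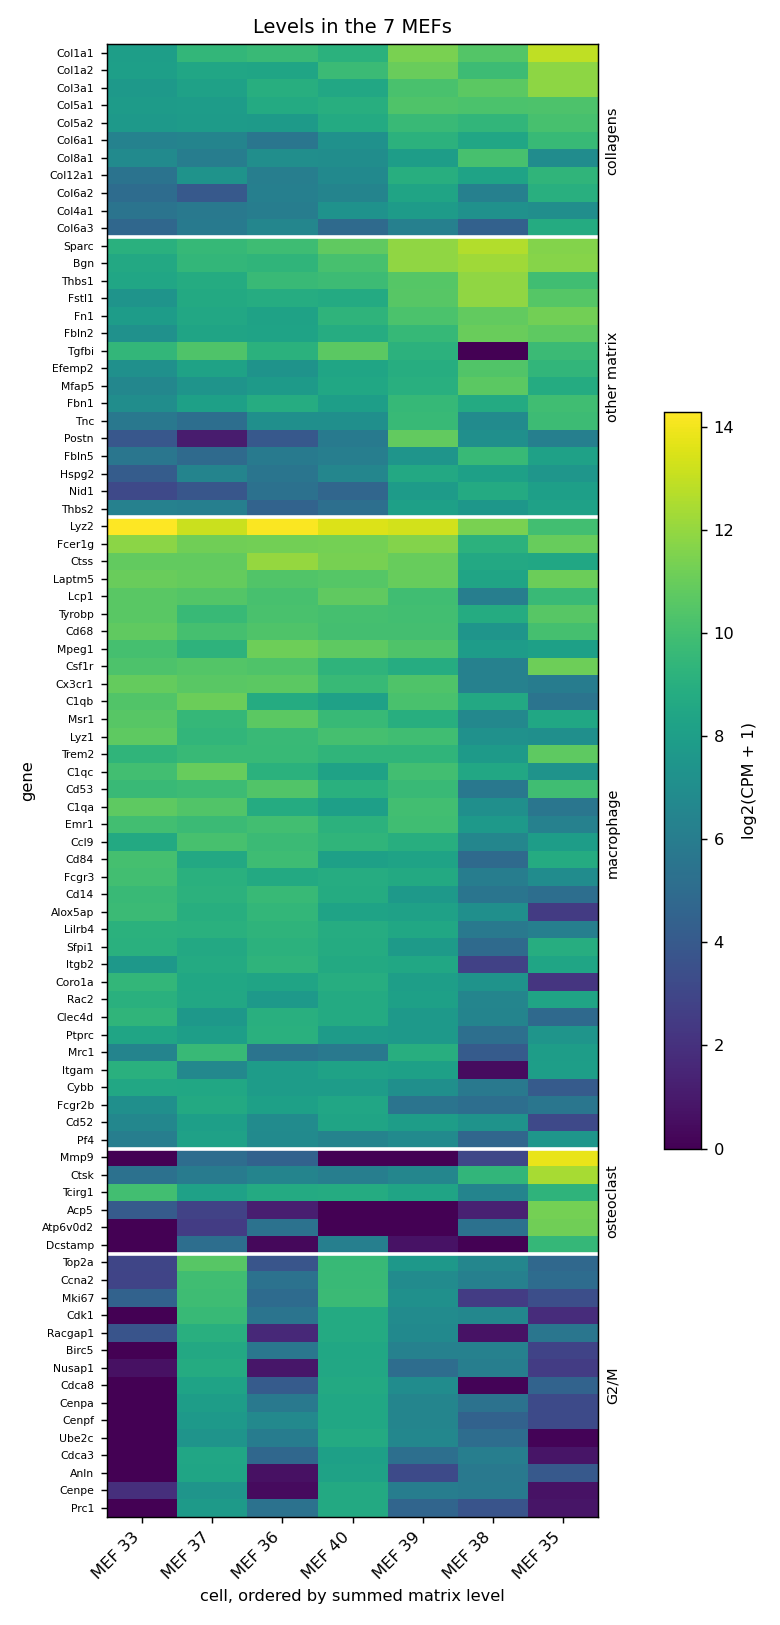
Levels as log2(CPM + 1) (colour) of the matrix, macrophage, osteoclast and G2/M genes with a mean of at least 100 CPM (rows) in the 7 MEFs (columns), ordered from the lowest matrix sum in MEF 33 to the highest in MEF 35. Col1a1, Col1a2 and Col3a1 are brightest in MEF 35, where Lyz2 is darkest, and other collagens differ in their brightest cell. MEF 35 alone is bright for Mmp9, Acp5, Atp6v0d2 and Dcstamp, and the G2/M block is brightest in MEF 37 and MEF 40.

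Gene pairs, drawn from the same values of the same cells as the sums, gave the same picture and are not separate support. The correlations were computed over 7 cells that share total depth and composition, between genes with a mean of at least 20 CPM, a filter that 43 of 49 matrix and 39 of 40 macrophage genes passed. The median Pearson r of log2(CPM + 1) was 0.58 over 903 pairs of matrix genes, of which 78.3% were positive. It was 0.63 over 741 pairs of macrophage genes, of which 91.6% were positive. Between the sets it was -0.42 over 1677 pairs, 78.8% of them negative. Over pairs of all 7076 genes that passed the filter the median was 0.01. Of those pairs, 16.1% had an r over 0.5 and 12.7% an r under -0.5. These shares use another threshold than the shares by sign, which were not counted over all pairs.

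These medians rested on the cells to different degrees. Among macrophage genes the median was 0.31 without MEF 38 and 0.82 without MEF 35. It was 0.17 without both, so that among the 5 other cells macrophage genes were only weakly correlated. The median of matrix genes was 0.70 without both cells, and that between the sets -0.28. Without MEF 39 the median between the sets was -0.55.

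**Figure D3:**
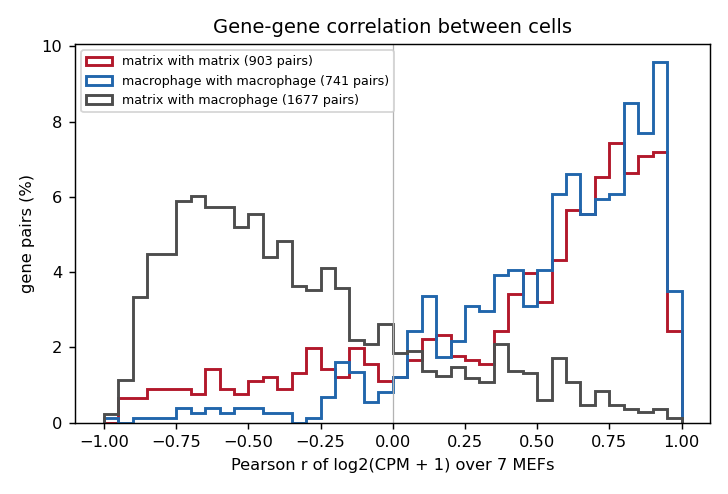
Share of gene pairs (vertical, %) by Pearson r of log2(CPM + 1) over 7 MEFs (horizontal), for 903 pairs of matrix genes, 741 pairs of macrophage genes and 1677 pairs of 1 gene from each. Pairs within a set pile up at high r, with medians of 0.58 and 0.63, and pairs between the sets lie mostly below 0, with a median of -0.42.

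The genes most like Col1a1 over the 7 cells, among those with a mean of at least 50 CPM, were partly matrix genes. Lamb1, a laminin chain, had an r of 0.96, Fbn1, the microfibril protein fibrillin, 0.95, Col3a1 0.94, Col12a1 0.92 and Col1a2 0.91. Sfrp1, a secreted inhibitor of Wnt signalling, had an r of 0.91. Gm15421, Tex264, Pid1 and Rpl22l1 completed the 10 genes, with r of 0.91 to 0.94. Without MEF 35 and MEF 39, the cells farthest from the median of Col1a1, Fbn1 kept 0.93 and Col1a2 had 0.60. The lowest values belonged to Ccnc, Snx24, Rab5c, Psmd8 and Dera, at -0.97 to -0.95. An r over 0.9 with Col1a1 was found for 17 of 7075 genes, or 0.240%.

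For Lyz2 the nearest genes were mostly of the myeloid lineage. Clec4d, a C-type lectin, and Cd93 had an r of 0.98, as did Rnh1, the inhibitor of ribonuclease. Cd33, Havcr2, Lgals3 and Gp49a had 0.97, and Emr1, which encodes the F4/80 antigen, Cndp2 and Tmsb4x had 0.96. Gp49a and Lilrb4 are near-identical neighbours, as are Lyz1 and Lyz2, so reads may be split between them. Without MEF 35 and MEF 38 the r of Emr1 was 0.36 and that of Clec4d 0.94. Ghitm, Ctsk, Ptgfr, Map2k3 and Il6st had the lowest r, -0.97 to -0.94. An r over 0.9 with Lyz2 was found for 81 of 7075 genes, or 1.14%.

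The summed level of genes whose products work on collagen varied with the matrix sum. Collagen-processing genes summed to 3173 CPM in MEF 33, 12208 in MEF 35 and 17276 in MEF 38. The log2 sum had an r of 0.88 with the matrix sum, or 0.93 without MEF 35 and MEF 38. Single genes of the list were less alike, with a median r of 0.26 over 210 pairs. Lox, the enzyme that crosslinks collagen, had 8632 CPM in MEF 38 and 4551 CPM in MEF 35, against 241 to 1328 CPM in the other 5 cells. Serpinh1, the collagen chaperone HSP47, had 2513 CPM in MEF 35 and 2496 CPM in MEF 38 and 177 to 1031 CPM elsewhere. P4hb, a prolyl hydroxylase subunit that also serves other secreted proteins, varied less, at 686 to 2102 CPM.

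YAP and TEAD are regulators of transcription that respond to cell spreading. Their targets summed to 3245 CPM in MEF 38, 1429 in MEF 35 and 1119 in MEF 39. The other 4 cells had 395 to 710 CPM. Cyr61 had 721 CPM in MEF 38 and 643 CPM in MEF 35, and 57.2 to 193 CPM elsewhere. F3, tissue factor, had 1142 CPM in MEF 38 and no more than 255 CPM in any other cell. Over the 7 cells the summed targets had an r of 0.89 with the matrix sum and -0.96 with the macrophage sum.

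Lysosomal genes were abundant in every cell, and their sum, carried by a few genes, had an r of 0.84 and a rho of 0.68 with the macrophage sum. As single genes they were less alike, with a median r of 0.12 over pairs of the 29 that passed the filter and of 0.21 with Lyz2. They summed to 75393 CPM in MEF 33 and 20877 CPM in MEF 38, beside 9013 to 17402 CPM in C2C12 cells. Ctsb, the protease cathepsin B, had 2214 CPM in MEF 38 and 9163 to 19152 CPM in the other 6 cells. Gpnmb, a glycoprotein of lysosome-rich macrophages, spanned a wider range, from 179 CPM in MEF 35, 223 CPM in MEF 38 and 305 CPM in MEF 40 to 9504 CPM in MEF 33.

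MEF 35 held a set of transcripts that were much lower in the other cells, some of them nearly absent there. Mmp9, the gelatinase MMP-9, had 14151 CPM in MEF 35, 32.9 CPM in MEF 37, 21.5 CPM in MEF 36, 7.24 CPM in MEF 38 and 0 reads in MEF 33, 39 and 40. Acp5, tartrate-resistant acid phosphatase, had 2476 CPM in MEF 35 and at most 16.2 CPM elsewhere. Ctsk, the collagen-degrading protease cathepsin K, had 5547 CPM in MEF 35, 675 CPM in MEF 38 and 39.7 to 94.3 CPM in the other 5 cells. Those 3 genes are known from osteoclasts, the bone-resorbing cells of the macrophage lineage, and Mmp9 and Ctsk are also made by other cells.

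A list of 14 osteoclast genes, put together after these values were seen, was therefore summed in each cell as a description. It had 26726 CPM in MEF 35 and 658 to 1407 CPM in the other 6 cells. Atp6v0d2, a subunit of the proton pump, had 2307 CPM in MEF 35 and at most 40.8 CPM elsewhere. Dcstamp, which takes part in cell fusion, had 728 CPM in MEF 35, 69.8 CPM in MEF 40, 35.02 CPM in MEF 37 and less than 1 CPM in the other 4. Calcr, the calcitonin receptor, had no read in any cell, and Car2, carbonic anhydrase 2, had 5.80 CPM in MEF 35.

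**Figure D4:**
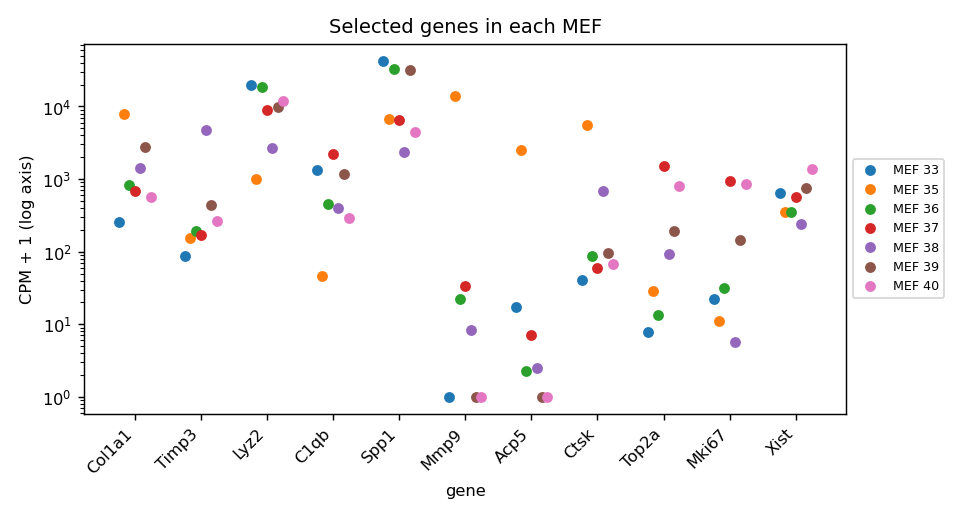
CPM + 1 (vertical, log axis) of 11 genes in each of the 7 MEFs, 1 coloured point per cell. MEF 35 lies highest for Col1a1, Mmp9, Acp5 and Ctsk and lowest for Lyz2, MEF 38 lies highest for Timp3, MEF 37 and MEF 40 lie highest for Top2a and Mki67, and Xist is above 241 CPM in every cell.

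A fixed rule of size counted the genes set apart in 1 cell, those with at least 100 CPM there and at least 8 times the CPM + 1 of any other cell. There were 48 such genes. MEF 38 had 22 of them, 1.02% of the genes at 100 CPM in that cell, and MEF 35 had 13, or 0.604%. MEF 33 had 4 (0.203%), MEF 40 had 4 (0.177%), MEF 36 had 3 (0.144%) and MEF 39 had 2 (0.099%), while MEF 37 had none of 2327. MEF 35 and MEF 38, the cells at the matrix end, thus held most of the 48.

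In MEF 38 the strongest were Cdh6, a cadherin, with 201 CPM and at most 0.314 CPM elsewhere, Tram1l1 with 100.3 CPM, and Cd55, an inhibitor of complement, with 602 CPM and at most 12.3 CPM elsewhere. Timp3, the matrix-bound inhibitor of metalloproteinases, had 4778 CPM in MEF 38, 445 CPM in MEF 39 and 85.7 to 267 CPM in the other 5. Angptl7, a secreted protein, had 831 CPM there and at most 39.4 CPM elsewhere. Prelp at 2819 CPM and Efemp1 at 3712 CPM, both matrix-binding proteins and both named after their values were seen, belonged to the same 22 genes.

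In MEF 35 the strongest were Mmp9, Acp5 and Mt3, a metallothionein, which had 283 CPM and less than 1 CPM elsewhere. In MEF 33 they were Prss46, which had 0 reads in the other 6 cells, Npy, the precursor of a neuropeptide, with 239 CPM, and Tlr6, a receptor of the innate immune system, with 133 CPM. MEF 40 alone had Ccr2, the chemokine receptor of inflammatory monocytes, at 204 CPM, with 0.943 CPM in MEF 39 and 0 reads in the other 5. Cntn4 and Zc3h12c were the next in that cell. Zfp51, Eif2c1 and F11r, a tight-junction protein, were set apart in MEF 36, and Postn and Saa3, an acute-phase protein, in MEF 39.

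Spread over all genes is given as the SD of log2(CPM + 1) over the 7 cells, so an SD of 1 is a factor of 2 on that scale, which understates the change of low genes. Of 7076 genes with a mean of at least 20 CPM, 2369, or 33.5%, had an SD of at least 2. In C2C12 cells 1293 of 7453 genes did, or 17.3%. For the 5962 genes that passed in both groups the median SD was 1.18 in MEFs and 0.77 in C2C12 cells, and it was larger in MEFs for 70.4% of them. With all libraries thinned to 3.18 M reads the medians were 1.19 and 0.77. The share was smaller among abundant genes. Among genes with a mean of at least 100 CPM, 171 of 2043, or 8.37%, had such an SD, and the median SD was 0.71.

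Matrix genes had 13 of 43 and macrophage genes 6 of 39 members with an SD of at least 2, beside the 33.5% of all genes. At a mean of at least 100 CPM these were 3 of 27 and 5 of 36, beside 8.37% of all genes. Each count is small, and the median SD was 1.53 for matrix and 1.51 for macrophage genes, against 1.33 over all genes that passed. That comparison is not at like level, since 36 of the 39 macrophage and 27 of the 43 matrix genes had a mean of at least 100 CPM. Over all genes with such a mean the median SD was 0.71.

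Genes of the G2/M phase of the cell cycle had the highest median SD, 3.10, of the lists with more than 5 genes past the filter. Of 32 that passed the filter, 31 had an SD of at least 2, beside 33.5% of all genes. At a mean of at least 100 CPM all 15 did, beside 8.37% of all genes. Their summed level was 10205 CPM in MEF 37 and 10095.5 CPM in MEF 40, against 1866 in MEF 39, 955 in MEF 38, 666 in MEF 36, 254 in MEF 35 and 165 in MEF 33. All 33 listed genes reached 20 CPM in both MEF 37 and MEF 40, while 4 did in MEF 33 and 5 in MEF 35. The filter was on the mean of all cells, so genes could pass it through MEF 37 and MEF 40 alone. Genes that pass in this way have a large SD, so the counts above are partly set by the filter.

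Top2a, the topoisomerase that untangles chromosomes, had 1497 CPM in MEF 37 and 798 CPM in MEF 40, and 6.78 to 192 CPM in the other 5 cells. Mki67, the proliferation antigen Ki-67, had 930.1 and 865 CPM in these cells and 4.78 to 145 CPM elsewhere. Cdk1, the kinase that drives entry into mitosis, had 0 reads in MEF 33 and 797 CPM in MEF 37. The median correlation between pairs of G2/M genes was 0.81.

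S-phase genes separated the cells less. The G1/S list summed to 4601 CPM in MEF 37, 2785 CPM in MEF 40 and 608 to 1342 CPM in the other 5 cells. Of its 25 members that passed, 13 had an SD of at least 2, beside 33.5% of all genes. At a mean of at least 100 CPM none of 3 did, beside 8.37% of all genes. Mcm6, a subunit of the replicative helicase, had 951 CPM in MEF 37 and 494 CPM in MEF 33, against 83.3 to 134 CPM in the other 5. Rrm2, a ribonucleotide reductase subunit, was highest in MEF 37 and MEF 40, at 305 and 247 CPM. MEF 37 and MEF 40 did not differ from the rest in the balance of matrix and macrophage genes, their ratios of 4.91 and 2.97 lying in the middle of the order.

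Pbk, Spc25, Kif4, Nuf2, Kif11 and Ncapg were further mitotic genes among the 20 with the largest SD, as were Cdca8, Tpx2 and Cdk1 of the list. The other 11 of the 20 were Mmp9, Atp6v0d2, Cd36, Acp5, Dcstamp, Ccl3, Tgfbi, Slc37a2, Gpr34, Angptl7 and Atf3. Mmp9 had the largest SD, 4.93. Cd36, a scavenger and fatty acid receptor, had 993 CPM in MEF 33 and 0 reads in MEF 35 and MEF 40. Slc37a2, a sugar-phosphate transporter of macrophages, had 2897 CPM in MEF 35 and 0 reads in MEF 38.

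**Figure D5:**
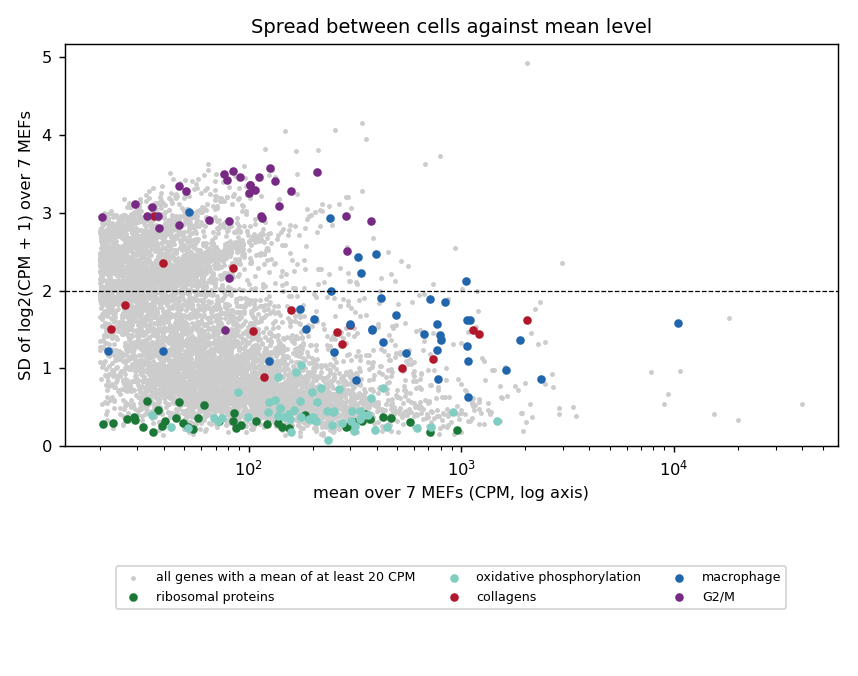
SD of log2(CPM + 1) over 7 MEFs (vertical) against mean CPM (horizontal, log axis) for 7076 genes, with 5 gene lists coloured and a dashed line at an SD of 2. All G2/M genes but 1 lie above the line, all ribosomal protein and oxidative phosphorylation genes lie below it, and macrophage genes had a median SD of 1.51.

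At the other end, genes of protein synthesis and respiration differed least. None of 40 ribosomal protein genes and none of 54 oxidative phosphorylation genes had an SD of at least 2, beside 33.5% of all genes. At a mean of at least 100 CPM, 0 of 17 ribosomal protein genes and 0 of 46 oxidative phosphorylation genes did, beside 8.37% of all genes. The median SDs were 0.32 and 0.39. Rpl4 lay between 737 and 1145 CPM, and Cox4i1, a subunit of cytochrome c oxidase, between 538 and 889 CPM. The summed ribosomal protein level ran from 5467 to 8561 CPM and that of oxidative phosphorylation from 11206 to 17188 CPM. Heat-shock genes summed to 1795 to 2733 CPM. Chaperones of the endoplasmic reticulum, which fold secreted proteins, summed to 6038 to 11124 CPM, with MEF 33 highest although it was lowest in matrix transcripts.

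Secreted signals differed by gene and by cell. Spp1, osteopontin, a phosphoprotein of matrix and macrophages, had 42622 CPM in MEF 33, 32439 in MEF 36 and 31785 in MEF 39, and 2334 to 6632 CPM in the other 4 cells. It alone thus took 4.26% of the gene reads of MEF 33. C2C12 cells also had it, at 5340 to 21769 CPM. Ccl2, a monocyte-attracting chemokine, was highest in MEF 38, at 1975 CPM, and Csf1, the ligand of Csf1r, was highest there as well, at 1089 CPM against 39.3 to 332 CPM elsewhere. MEF 38 was thus highest in the ligand and lowest in its receptor.

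The chemokines Ccl3 and Cxcl2 were highest in different cells. Ccl3 had 738 CPM in MEF 33, 307 CPM in MEF 39 and 305 CPM in MEF 40 and less than 1 CPM in MEF 35 and MEF 38. Cxcl2 had 789.5 CPM in MEF 40 and at most 78.6 CPM in any other cell. Igf1, insulin-like growth factor 1, followed Lyz2 with an r of 0.94 and lay between 31.96 CPM in MEF 35 and 1190.3 CPM in MEF 33. Wisp2, a matricellular protein, followed the matrix genes, from 36.4 CPM in MEF 33 to 1019.7 CPM in MEF 38.

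Contractile genes changed little in sum, from 11967 to 18157 CPM. Within the list, Actb, cytoplasmic actin, had 3962 CPM in MEF 35 and 13100.0 CPM in MEF 33 and a correlation of 0.94 with Lyz2, while Acta2, smooth muscle actin, had 1407 CPM in MEF 35 and 173 CPM in MEF 33 and a correlation of 0.87 with Col1a1. Lpl, lipoprotein lipase, listed as an adipocyte gene and also made by macrophages, ran from 165 CPM in MEF 38 to 4833 CPM in MEF 35. Mef2c, listed as a myogenic gene and also expressed by myeloid cells, had an r of 0.92 with Lyz2.

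Genes that record the regional origin of fibroblasts were low. Only 1 of 39 Hox genes, Hoxb13, passed the mean of 20 CPM, at 0.353 to 85.4 CPM, and 11 had no read in any cell. Hoxc10 and Hoxa10 had 0 reads in MEF 33 and MEF 36 and up to 38.7 and 63.8 CPM in other cells. The Hox sum was highest in MEF 38, at 359 CPM, and lowest in MEF 36, at 20.6 CPM.

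Sex-linked transcripts were alike in kind in all cells. Xist, the non-coding RNA made from the inactive X chromosome, had 641 CPM in MEF 33, 347 in MEF 35, 350.3 in MEF 36, 559 in MEF 37, 242 in MEF 38, 752 in MEF 39 and 1375 in MEF 40. The 8 Y-linked genes together had 0 reads in 6 cells and 1 read in MEF 40. Every cell thus had Xist, also the cells at the macrophage end and those at the matrix end. Ddx3x lay between 147 and 473 CPM, Kdm6a between 2.30 and 108 CPM, and Kdm5c between 0 and 81.8 CPM.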

How the data were processed

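Polyadenylated RNA of 7 single MEFs and 6 single C2C12 cells was measured with Smart-Seq2. Per the file headers, the deposited tables hold the count of reads per RefSeq gene, made by the authors, and the authors' RPKM per gene. Alignment was with STAR to mm10, per the submitters' processing notes. With which tool and settings for strand and multiple matches reads were counted is not given in the sources used here, so reads of overlapping, antisense or near-identical genes may be mixed. The tables had 23827 entries for 23351 symbols, and entries of a symbol were summed. CPM was computed from the counts over all gene reads.

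Spread was the SD of log2(CPM + 1) over cells, correlations were Pearson r of the same values, and genes needed a mean of 20 CPM. No p-value was computed for a difference between cells, because the labels name no culture or embryo and cells are not replicates. Chi-square values between cells served only to look for copied libraries, and Dixon ratios only to list extreme cells. Molecules were not tagged before PCR, so floors of 3 reads cover counting error only. The 44 gene lists, the members and the rule for named genes were chosen with earlier results of these data known, and an osteoclast list was added after these values were seen. Named genes were the 20 with the largest SD at a mean of 50 CPM, the 3 most set apart in each cell, up to 4 of the highest mean and 2 of the largest SD per described list, the 10 highest and 5 lowest r with Col1a1 and Lyz2, and all matrix, macrophage and sex-linked genes; others are the markers of the label check or are marked in the text. Lists are described by counts of genes that passed the filter on the mean.

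Scaling alternatives used TMM factors (edgeR 4.0.16) and DESeq2 1.42.0 size factors in R 4.3.3. Other alternatives were RPKM, thinning to the shallowest library, pseudocounts of 0.1 and 5, means of 5 or 100 CPM or none, Spearman rho, and leaving out each cell. Python 3.11.15, numpy 2.4.6 and pandas 2.3.3 were used. The spread, correlation and 1-cell rules were run on simulated data with less spread than these cells had, and with a lower SD cut. Those runs checked the code and not the counts reported here. No mouse sequence was used here.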

Additional observations from a re-analysis of the deposited data

Results flagged for a closer look

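In 60 values over the 7 MEFs, 5 had an extreme cell whose gap to its nearest neighbour took a larger share of the range than Dixon's critical value. In independent replicates chance exceeds it in about 1 of 20 groups, but that rate does not apply here, because cells are not replicates and the genes were chosen for their large spread. The ratios are a description. The log2 sum of osteoclast genes was highest in MEF 35 with a gap of 0.795 of the range, and the list was made after its leading genes had been seen there. Mmp9 and Acp5, which belong to that list, were highest in MEF 35 with gaps of 0.631 and 0.636. Tgfbi was lowest in MEF 38 with a gap of 0.858. Slc37a2 was lowest in MEF 38 with a gap of 0.612. Tgfbi and Slc37a2 had 0 reads in MEF 38.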

How the results depend on the processing

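No paired analysis was possible because no groups were tested against each other and the numbers in the labels only name cells. The median correlations within and between the matrix and macrophage sets kept their sign under all alternatives run. Some correlations of list sums did not: without MEF 35 and MEF 38 the r of G2/M genes went from 0.10 to -0.84 with the macrophage sum and from -0.09 to 0.38 with the matrix sum, and that of oxidative phosphorylation with the macrophage sum from -0.12 to 0.28. The count of 2369 genes with an SD of at least 2 was 594 with RPKM, 301 with a pseudocount of 5, 4280 with a mean of at least 5 CPM, 4283 with no filter and 171 with a mean of at least 100 CPM, and stayed within 1.5 times with TMM, DESeq2 factors, thinning and a pseudocount of 0.1. The median r within matrix genes was 0.77 with RPKM, 0.53 at a mean of 5 CPM and 0.78 at 100 CPM. Within macrophage genes it was 0.41 as Spearman's rho. Between the sets it was -0.56 with RPKM and -0.56 at a mean of 100 CPM. Genes set apart in 1 cell numbered 25 with RPKM and 445 with a minimum of 20 CPM. Without MEF 35 and MEF 38, an alternative chosen after seeing the data, the SD of the log2 sum was 0.96 for matrix and 0.29 for macrophage genes, and the median r was 0.70 within matrix, 0.17 within macrophage and -0.28 between them. The variable genes numbered 1996 without these cells and 2331 without MEF 37 and MEF 40, also chosen after seeing the data.

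Leaving out each cell in turn gave 2064 to 2589 variable genes, 31 to 80 genes set apart in 1 cell, an SD of 1.07 to 1.30 for the matrix sum and 0.57 to 1.08 for the macrophage sum. The median r ran from 0.53 to 0.65 within matrix, from 0.31 to 0.82 within macrophage and from -0.55 to -0.38 between them. The cause of these shifts was not tested. Of 286 alternative SDs of 22 named genes, 205 stayed within the spread of the values with a cell left out and 81 moved. DESeq2 factors shifted the median of all genes by at most 0.11 on the log2 scale, in MEF 33. Thinning to equal depth gave 2400 variable genes and SDs of 1.20 and 0.99 for the matrix and macrophage sums. The culture behind each cell is not given in the labels and cannot be told apart from differences between cells.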

Other observations

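Genes outside the groups above also differed between cells. The immediate early genes, which respond within minutes to stimulation, summed to 8081 CPM in MEF 33 and 7729 CPM in MEF 40 and were lowest in MEF 38, at 2868 CPM. Fos had 3407 CPM in MEF 33, 2086 CPM in MEF 40 and 506 CPM in MEF 39, and Atf3 had 484 CPM in MEF 40 and less than 1 CPM in MEF 35 and MEF 38. Cholesterol synthesis genes summed to 3305 CPM in MEF 36 and 3223 CPM in MEF 39, against 1177 to 2293 CPM in the other 5 cells. Sqle, squalene epoxidase, had 411 CPM in MEF 36 and 39.3 CPM in MEF 35.

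Interferon-response genes were highest in MEF 38, at a sum of 2894 CPM against 959 to 1814 CPM elsewhere. The list of cell cycle brakes and p53 targets was highest in the same cell, at 6799 CPM against 2123 to 4598 CPM. Its members of highest mean included the D cyclins Ccnd1 and Ccnd2, which are not brakes, so the sum is not one of brakes alone. Of the list, Cdkn1a, the inhibitor p21, had 950.3 CPM in MEF 38 and 103 CPM in MEF 33, and Ccng1 had 1569 CPM in MEF 38 and 233 to 473 CPM elsewhere. MHC class II transcripts stayed low in every cell, at a sum of 30.1 to 98.9 CPM, while class I genes summed to 2391 to 6361 CPM with MEF 38 lowest. Ferritin genes were high throughout, with Fth1 at 13127 to 25278 CPM.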
